A study of Mus musculus with 2 samples.

Results

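RNAs for the proteins that build, line and fill the zymogen granule of the pancreatic acinar cell were examined gene by gene in single cells of mouse pancreatic tumours. The genes were picked by name for their place in the granule or the acinar cell: Gp2, Cuzd1, Zg16 and Dmbt1, Sycn, Spink1 and Serpini2, Tmed11 and Aqp12. All 9 are among the 32285 genes of the deposited matrix, and each had UMIs (unique molecular identifiers, 1 count per captured RNA molecule) in both libraries. EL1 tumours came from EL1-Luc/EL1-Tag mice, an FVB/N line in which the elastase I promoter drives the SV40 large T antigen and luciferase in acinar cells. WTg tumours came from EL1-Luc/EL1-Tag x CAG-Mettl3 mice, which carry both of those transgenes and in addition the coding sequence of Mettl3, an RNA N6-adenosine methyltransferase, under the ubiquitous CAG promoter. Mice of both groups were 6 weeks old and each group was measured in 1 library, so no difference below was tested and every interval covers counting error at 95% only. The CAG-Mettl3 line was made in C57BL/6, so transgene and strain background cannot be told apart, and the number and sex of the mice behind a library are not given in the sources used here.

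The zymogen granule is the storage organelle of the exocrine pancreas. Acinar cells condense inactive digestive enzymes in the Golgi, wrap them in a membrane rich in a few glycoproteins, and release them by fusion with the apical membrane when cholecystokinin or acetylcholine arrives. Accessory proteins of the granule sort and pack the enzymes, shield the membrane from them and inhibit trypsin that becomes active too early, and they are counted among the markers of a differentiated acinar cell.

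A barcode counted as a cell when it had 500 genes and 1000 UMIs or more and no more than 20% of its UMIs were mitochondrial. This left 1113 of 1621 EL1 barcodes with a median of 26543 UMIs and 905 of 1488 WTg barcodes with a median of 34836 UMIs. Mettl3, the check on the labels, was at 15.1 CPM (UMIs per 1000000 UMIs of the same cells) in EL1 and 66.7 CPM in WTg. The libraries shared 15 barcodes, of which none was kept in both. The labels call the cells epithelial, but the clusters also held macrophage-like, T or NK-like, B-like and red cell-like cells. Of 18 clusters, 8 could be named from marker genes, with none of the 9 genes among the markers or in the clustering. Only 5 held 20 or more cells of each library, so most clusters were mostly of 1 library. Acinar-like cells were 2.70% of kept EL1 cells and 19.0% of kept WTg cells, and the part of this difference in the library totals was not tested. Naming needed markers 2-fold higher than in all other cells, so clusters rich in digestive enzymes could stay unnamed. Unnamed cluster 2, with 177 EL1 cells, had the trypsinogen Prss2 at 34864 CPM, against 21742 CPM in EL1 cells of acinar-like cluster 10. The acinar-like share is thus not the share of all cells with acinar enzymes. Values within cell groups are given after the totals.

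Promoter windows of 250 bases upstream of the RefSeq start (GRCm38.p6) were at hand for Gp2, Cuzd1, Sycn, Serpini2 and Aqp12. The windows of the pairs whose levels followed each other most closely across cell groups, Sycn with Serpini2 and Gp2 with Cuzd1, are shown 5′ to 3′ on the strand of the gene, with matches to the motifs searched in capitals.
Gp2, chr7:119459273-119459522, minus strand: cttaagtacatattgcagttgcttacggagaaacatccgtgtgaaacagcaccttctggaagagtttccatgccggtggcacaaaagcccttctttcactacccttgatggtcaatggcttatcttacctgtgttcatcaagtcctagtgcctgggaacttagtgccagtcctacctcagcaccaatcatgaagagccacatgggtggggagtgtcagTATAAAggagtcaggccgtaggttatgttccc
Cuzd1, chr7:131322293-131322542, minus strand: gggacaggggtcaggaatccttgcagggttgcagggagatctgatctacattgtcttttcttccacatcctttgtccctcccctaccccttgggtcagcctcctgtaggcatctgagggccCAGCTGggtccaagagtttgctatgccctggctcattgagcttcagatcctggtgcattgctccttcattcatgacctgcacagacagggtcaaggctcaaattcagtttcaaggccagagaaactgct
Sycn, chr7:28540635-28540884, plus strand: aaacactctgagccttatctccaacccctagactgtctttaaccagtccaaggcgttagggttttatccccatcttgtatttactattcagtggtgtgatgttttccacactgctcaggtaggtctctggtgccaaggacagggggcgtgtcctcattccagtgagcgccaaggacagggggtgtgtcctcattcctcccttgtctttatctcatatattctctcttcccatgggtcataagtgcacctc
Serpini2, chr3:75270079-75270328, minus strand: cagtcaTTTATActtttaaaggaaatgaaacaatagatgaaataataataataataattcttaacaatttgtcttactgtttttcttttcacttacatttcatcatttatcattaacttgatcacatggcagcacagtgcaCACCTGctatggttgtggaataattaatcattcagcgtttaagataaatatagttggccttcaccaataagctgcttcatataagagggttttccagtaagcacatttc
Motifs were searched on both strands. The E-box forms searched were CACCTG, then CAGCTG, then CATATG. Part of the sites of RBPJ and RBPJL was searched as TTTCCC, part of the site of nuclear receptors such as NR5A2 as AAGGTCA, and the TATA box as TATAAA. The Gp2 window held TATAAA starting 32 bases before the annotated start, a motif found in 12.4% of 32851 promoter windows of the same length. Cuzd1 held CAGCTG, found in 4271 of the 32851 windows, and Serpini2 and Aqp12 each held CACCTG or its reverse complement, found in 17.2%. Serpini2 also held TATAAA on the reverse strand, 244 bases upstream. No window of these 5 genes held CATATG (3.46% of all windows), TTTCCC (21.9%) or AAGGTCA (4.08%), and the Sycn window held no match to any of the 6 motifs. Neither pair had a searched motif in common. A match is a match of letters and does not show a bound site.

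Summed over all kept cells, the 9 genes took up 4460 CPM in EL1 against 7619 CPM in WTg. WTg was higher by at least 2-fold for 6 of the 9, namely Gp2, Cuzd1, Sycn, Dmbt1, Serpini2 and Aqp12, where 10.1% of 16167 measured genes were higher by as much. Tmed11 was lower by at least 2-fold, as were 6.9% of all genes. Spink1 and Zg16 lay within 2-fold. The median log2 ratio of WTg over EL1 was 1.98 over the 9 genes and -0.14 over all genes measured.

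Over all kept cells, RNAs for proteins of the granule membrane and its inner coat were all higher in WTg, by differing amounts. Gp2, the glycosylphosphatidylinositol-anchored major glycoprotein of the granule membrane, had 6959 UMIs or 183 CPM in EL1 (179 to 188) against 33111 UMIs or 1003 CPM in WTg (992 to 1014), a log2 ratio of 2.45 (2.41 to 2.49). Cuzd1, a membrane protein of the granule with CUB and zona pellucida domains, had 219 CPM in EL1 (214 to 224) against 1002 CPM in WTg (991 to 1013), a log2 ratio of 2.19 (2.16 to 2.23). Both were detected in most cells of both libraries, Gp2 in 570 of 1113 EL1 cells and 762 of 905 WTg cells, Cuzd1 in 810 and 756. Dmbt1, a scavenger receptor cysteine-rich glycoprotein known in the mouse pancreas as muclin, was at 124 CPM in EL1 (121 to 128) against 490 CPM in WTg (483 to 498), a log2 ratio of 1.98 (1.94 to 2.03). Dmbt1 was carried by few EL1 cells: 142 had a UMI, and the highest 112 cells held 99.4% of its UMIs. In WTg, 484 cells had a Dmbt1 UMI and the highest 91 cells held 59.1% of them. Zg16, a lectin-like protein of the granule, differed least in this set, with 204 CPM in EL1 (199 to 208) against 312 CPM in WTg (306 to 318), a log2 ratio of 0.62 (0.57 to 0.66).

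Among the granule contents, Sycn and Serpini2 were low in EL1 and abundant in WTg. Sycn encodes syncollin, a small protein bound to the inner face of the granule membrane. It had 406 UMIs or 10.7 CPM in EL1 (9.68 to 11.8) against 25909 UMIs or 785 CPM in WTg (775 to 795), which is 73.4-fold higher, with a log2 ratio of 6.20 (6.06 to 6.34). Serpini2, a serine protease inhibitor of the exocrine pancreas also called pancpin, had 56 UMIs or 1.48 CPM in EL1 (1.11 to 1.92) against 6523 UMIs or 198 CPM in WTg (193 to 202). This was 134-fold higher in WTg, a log2 ratio of 7.07 (6.69 to 7.47), and the largest of the 9. Serpini2 UMIs were found in 21 EL1 cells, 1 of which held 16 of the 56 UMIs, whereas 507 WTg cells had one. Spink1, the secreted trypsin inhibitor that is packed with the zymogens, was by contrast nearly level, with 3686 CPM in EL1 (3666 to 3705) against 3782 CPM in WTg (3761 to 3803), a log2 ratio of 0.04 (0.03 to 0.05). It was found in 1027 EL1 cells and 812 WTg cells.

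Tmed11, a member of the p24 family of cargo receptors that shuttle between endoplasmic reticulum and Golgi, was the gene that was lower in WTg. It had 649 UMIs or 17.1 CPM in EL1 (15.8 to 18.5) against 134 UMIs or 4.06 CPM in WTg (3.40 to 4.81), a log2 ratio of -2.07 (-2.35 to -1.80). Its UMIs came from 133 EL1 cells and 42 WTg cells. Aqp12, an aquaporin found in acinar cells, was at 14.5 CPM in EL1 (13.3 to 15.8) against 42.8 CPM in WTg (40.6 to 45.1), a log2 ratio of 1.56 (1.42 to 1.71).

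**Figure D1:**
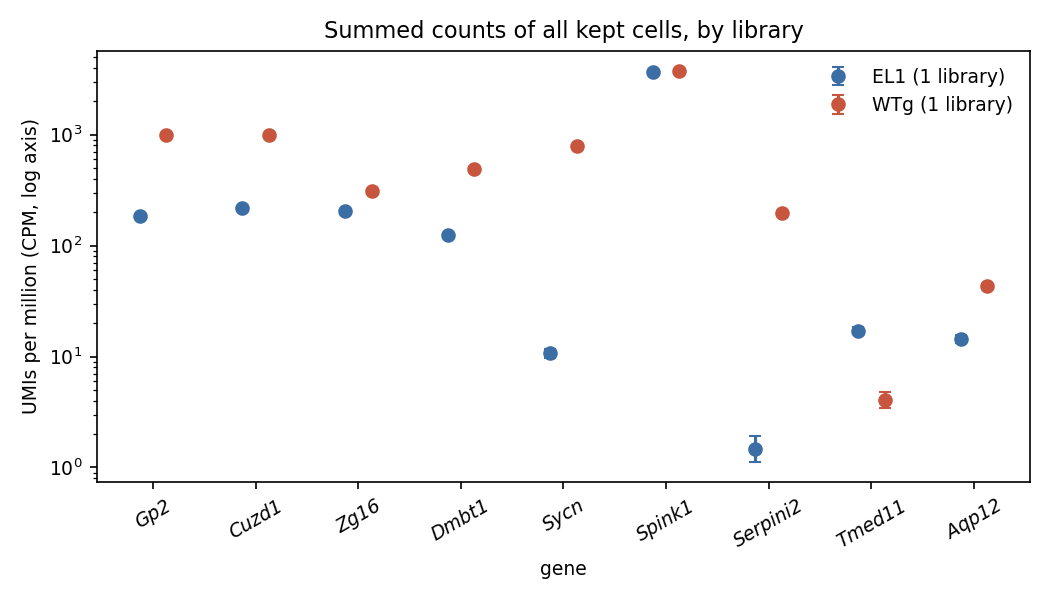
CPM of each gene summed over all kept cells, on a log axis, for EL1 (blue) and WTg (red), 1 library each. Bars are exact 95% Poisson intervals for counting error and are mostly hidden by the points. Spink1 is level between the libraries, Sycn and Serpini2 lie apart by over an order of magnitude, and Tmed11 alone is lower in WTg.

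Of the 9 genes, 5 lie on chromosome 7. Gp2 (ENSMUSG00000030954) is at chromosome 7, 119442537 to 119459285 on the minus strand of GRCm38, Sycn (ENSMUSG00000084174) at 28540885 to 28542209 on the plus strand, and Zg16 (ENSMUSG00000049350) at 127050156 to 127087328 on the minus strand. Dmbt1 (ENSMUSG00000047517) is at 131032053 to 131121630 on the plus strand, and Cuzd1 (ENSMUSG00000040205) at 131308554 to 131322292 on the minus strand. The annotated span of Fgfr2 covers both Dmbt1 and Cuzd1, and it has the strand of Cuzd1, but Fgfr2 itself had 0 UMIs in EL1 and 3 in WTg. Sycn lies within the span of Samd4b, which is on the opposite strand and had 58.3 CPM in EL1 against 53.9 CPM in WTg, and whether the counting used strand is not given in the sources used here. Serpini2 (ENSMUSG00000034139) is at chromosome 3, 75242370 to 75270078, and Spink1 (ENSMUSG00000024503) at chromosome 18, 43728082 to 43737557, both on the minus strand. Tmed11 (ENSMUSG00000004821) is at chromosome 5, 108777235 to 108795363 on the minus strand, where Vmn2r8, which had 0 UMIs, overlaps it on the same strand, and Aqp12 (ENSMUSG00000045091) is at chromosome 1, 93006334 to 93012269 on the plus strand.

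The granule genes were next set beside the rest of the secretory apparatus. Of all 16167 genes measured, 6168 were higher in WTg, 1636 of them by at least 2-fold, and 1116 were lower by as much. Of 25 digestive enzymes, 19 were higher and 6 lower in WTg, 13 of them higher and 2 lower by at least 2-fold, with a median log2 ratio of 1.07. The extremes were Prss1, a trypsinogen, at 36.0 CPM in EL1 against 5249 CPM in WTg (log2 ratio 7.19), and Pla2g1b, the pancreatic phospholipase, at 413 and 168 CPM (log2 ratio -1.30). Trypsinogen genes are near-identical copies, so the split of reads between them is uncertain. Prss2, another trypsinogen, was at 18993 CPM in EL1 against 15270 CPM in WTg. The enzymes together made up 15.9% of EL1 UMIs and 20.1% of WTg UMIs.

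Genes that move and fuse granules did not follow the granule genes. Of 19 measured traffic and secretion genes, 10 were higher and 9 lower in WTg, where 6168 of all 16167 genes were higher. The 19 had a median log2 ratio of 0.01, beside -0.14 over all genes. Of their signs, 2 (Rab3d and Snap23) turned under TMM scaling (trimmed mean of M-values, another scaling between libraries). Syt1, a calcium sensor of exocytosis, was highest in ratio (0.474 CPM in EL1, 6.39 CPM in WTg) and Sytl4, a Rab27 effector, was lowest, on 13 and 4 UMIs. Of 12 transcription factors of the acinar programme, 8 were higher and 4 lower with a median log2 ratio of 0.06, where 6168 of all 16167 genes were higher. Gata6 was at 2.05 CPM in EL1 against 13.1 CPM in WTg, and Ptf1a, a subunit of the acinar PTF1 complex, at 52.8 and 31.4 CPM. In the p24 family of Tmed11, 8 of 10 genes were lower, with a median of -0.36, where 9999 of the 16167 genes measured were lower (8118 under TMM scaling), and 1 of the 8 (Tmed7) turned under TMM scaling. Tmed1 had the lowest ratio of that family (27.5 CPM in EL1, 10.1 CPM in WTg, log2 ratio -1.44) and Tmed6, another p24 protein of the pancreas, the highest (307 and 349 CPM, log2 ratio 0.18). TMM scaling moved every gene by 0.13 on the log2 scale and turned the sign of none of the 9 granule genes.

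Immune cells do not make granule proteins, so immune-like cells gave the level of background, such as RNA free in the suspension. In 50 EL1 immune-like cells with 600640 UMIs, the 9 genes had 64 UMIs, of which 54 were Spink1. In 67 WTg immune-like cells with 1110854 UMIs they had 70 UMIs, of which 34 were Spink1 and 9 were Sycn. Per 10000 digestive enzyme UMIs, the 9 genes had 307 UMIs in EL1 immune-like cells and 280 in the EL1 cells that were neither immune-like nor red cell-like, and 383 and 380 in WTg. Serpini2, Tmed11 and Aqp12 had no UMI in any immune-like cell. Against this background, acinar-like cells held more of each gene that could be compared. In WTg, the log2 ratio of acinar-like over immune-like cells ranged from 5.98 for Sycn to 7.64 for Spink1 among genes with a UMI in both, with a median of 6.47 over the 9 genes, the lower bounds of Serpini2, Tmed11 and Aqp12 included, and -0.23 over all genes. In EL1 the median was 5.98 over the 8 genes with enough UMIs, the lower bounds of Tmed11 and Aqp12 included, beside -0.59 over all genes. Serpini2 had 1 UMI in EL1 acinar-like and 0 in immune-like cells. The EL1 ratios of Sycn, Zg16 and Dmbt1 each rested on 1 UMI in immune-like cells. Digestive enzymes, part of which were markers that named the class, had medians of 6.12 in EL1 and 6.99 in WTg.

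After thinning every cell to 2000 UMIs, which left 1051 EL1 and 836 WTg cells, the share of cells with a UMI had the same direction between the libraries as the level for each of the 9 genes. The share for Sycn was 2.57% in EL1 (1.70 to 3.72%) and 40.3% in WTg (37.0 to 43.7%). For Serpini2 the shares were 0.381% (0.104 to 0.972%) and 24.4% (21.5 to 27.5%). Without thinning, they were 15.1% and 69.6% for Sycn and 1.89% and 56.0% for Serpini2. Gp2 was found in 20.2% of EL1 and 59.1% of WTg cells, Cuzd1 in 28.9% and 66.6%, and Dmbt1 in 6.28% and 33.9%. The shares of Spink1 did not differ beyond their intervals, at 84.2% (81.9 to 86.4%) and 84.9% (82.3 to 87.3%). Their direction turned with cells thinned to 1000 UMIs (77.0% in EL1, 75.7% in WTg) and without thinning (92.3% and 89.7%). Zg16 was found in 13.6% and 20.9% of cells, Aqp12 in 2.57% and 6.46%, and Tmed11 in 2.47% and 0.718%. Among immune-like cells, with median depths before thinning of 7411 UMIs in EL1 and 9168 in WTg against 28320 and 36521 in all kept cells, Spink1 was found in 5 of 47 EL1 cells and 7 of 60 WTg cells. Sycn was found in 1 of 60 WTg immune-like cells and in 0 of 47 EL1 immune-like cells, which allows up to 3 of 47 cells or 6.38%. The EL1 shares of Sycn, Dmbt1, Serpini2, Tmed11 and Aqp12 lay under the share that 0 of 47 EL1 immune-like cells allows (Dmbt1 was in 1 of the 47), and the WTg share of Tmed11 under the 5% that 0 of 60 WTg immune-like cells allows, so these were not told apart from background by shares at this depth.

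**Figure D2:**
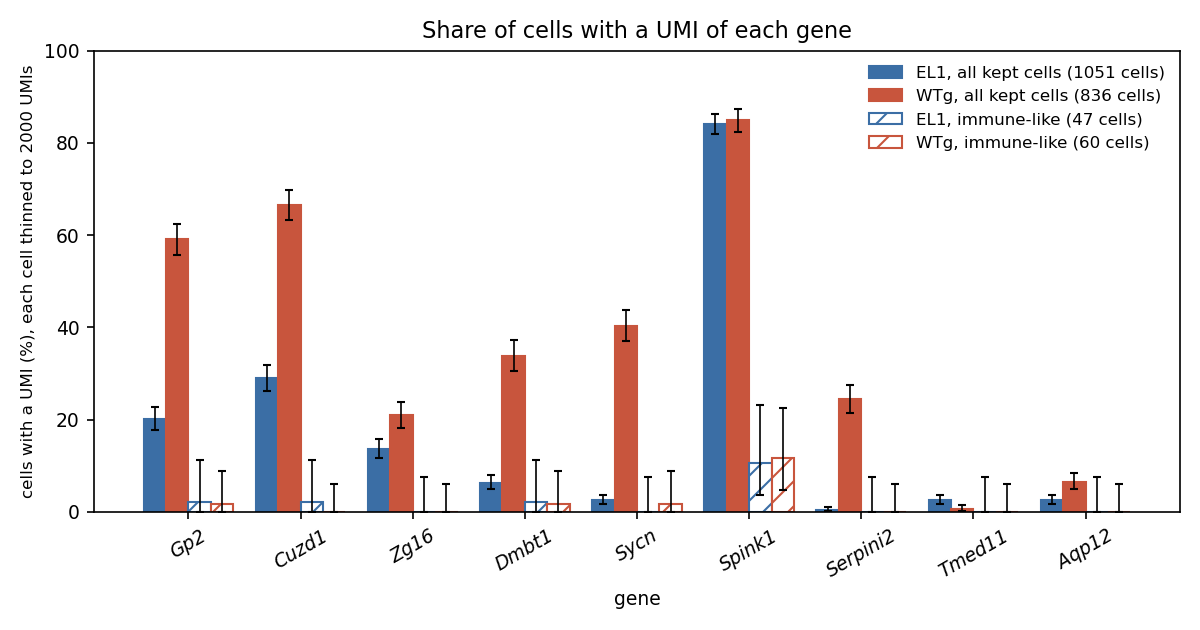
Share of cells with at least 1 UMI of each gene (%, axis from 0) after thinning each cell to 2000 UMIs, for all kept cells (filled bars) and immune-like cells (hatched bars) of EL1 (blue) and WTg (red). Error bars are exact 95% Clopper-Pearson intervals. Sycn was found in 2.57% of cells in EL1 and 40.3% in WTg, and Spink1 in 84.2% and 84.9%.

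Across clusters with at least 20 cells, 11 in EL1 and 9 in WTg, Sycn and Serpini2 separated the libraries in every cell group but the macrophage-like one. Leaving out the macrophage-like cluster, the EL1 clusters lay between 2.73 and 28.1 CPM of Sycn and the WTg clusters between 307 and 1400 CPM. For Serpini2 the EL1 clusters lay between 0 and 1.56 CPM and the WTg clusters between 28.9 and 326 CPM. The highest WTg level of both was in cluster 1, a cluster of 182 WTg cells that Gm5771 and Pnliprp2 led together with Sycn, Dmbt1 and Serpini2 themselves. Cuzd1 separated the libraries as well, less widely, with 16.7 to 326 CPM in EL1 against 505 to 1350 CPM in WTg. Clusters of 1 library are not replicates, and the libraries filled mostly different ones.

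The other genes overlapped between the libraries and varied with cell group, again with the macrophage-like cluster left out. In EL1, Gp2 ran from 20.2 CPM in cluster 13, which was led by the gastric proton pump genes Atp4a and Atp4b, to 1154 CPM (1002 to 1323) in acinar-like cluster 10. Next below came neuroendocrine-like clusters 7 and 0, with 779 CPM (715 to 847) and 466 CPM (451 to 481). WTg clusters held 594 to 1497 CPM of Gp2, with acinar-like clusters 8 (1440 CPM, 1404 to 1476) and 10 (1497 CPM, 1372 to 1630) at the top and overlapping in their intervals. Dmbt1 had another pattern: its highest EL1 clusters were cluster 13 (306 CPM) and cluster 4 (254 CPM), led by Igfbp7, Mgp and Sparc, with cluster 6 (241 CPM, 188 to 304) overlapping both in its interval, while acinar-like cluster 10 had 0 UMIs, an upper limit of 20.8 CPM. In WTg, Dmbt1 was highest in cluster 6 (1054 CPM, 959 to 1156) and cluster 1 (1035 CPM, 1015 to 1056), which did not differ beyond their intervals, and lowest in neuroendocrine-like cluster 7 (30.9 CPM). Spink1 followed the enzymes, with 344 to 6661 CPM in EL1 against 1353 to 6214 CPM in WTg, and was lowest in cluster 13 and the neuroendocrine-like clusters. In EL1, Aqp12 and Tmed11 were highest in acinar-like cluster 10, at 129 CPM (82.1 to 194) and 208 CPM (147 to 287), each from 4 of 27 cells. In WTg, Aqp12 reached 111 CPM (101 to 121) and Tmed11 13.6 CPM (10.3 to 17.5), both in acinar-like cluster 8. The Aqp12 interval of EL1 cluster 10 overlapped that of WTg cluster 8 and that of EL1 cluster 7 (74.0 CPM, 55.2 to 97.0). Zg16 was highest in cluster 10 of both libraries, at 607 CPM (529 to 694) in WTg and 462 CPM (367 to 573) in EL1.

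**Figure D3:**
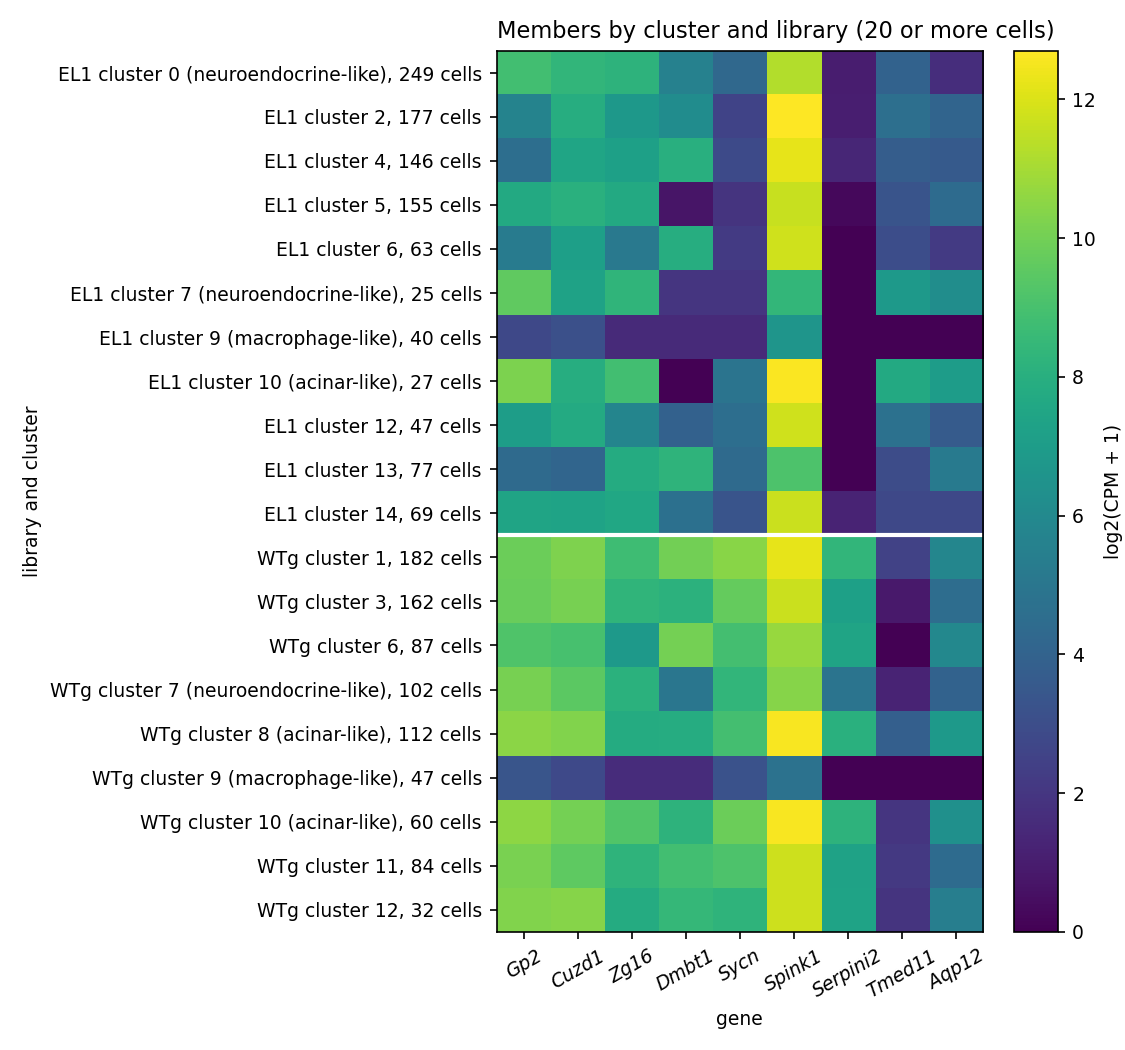
Level of each gene, as log2(CPM + 1) in colour, in each cluster with at least 20 cells of a library; rows are clusters of EL1 (above the white line) and WTg (below it) with their cell numbers, and columns are genes. Macrophage-like rows are dark for all genes but Spink1, the Serpini2 and Sycn columns change at the white line, and the Spink1 column does not.

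Both libraries filled clusters 6, 7, 9, 10 and 12 with at least 20 cells, so the libraries could be set side by side within these cell groups. Mettl3 was higher in WTg in clusters 6, 7 and 12, with intervals above 0, but not in cluster 10, where it had 5 UMIs in EL1 and 3 in WTg (28.1 and 8.47 CPM). Cluster 9 was macrophage-like, and its values are those of the background: no gene but Spink1 (97.9 CPM in EL1, 26.3 CPM in WTg) exceeded 10 CPM there. In the other 4, Sycn was higher in WTg each time, by 3.75 to 7.13 on the log2 scale. The 7.13 was that of cluster 6 and rested on 1 EL1 UMI (4.64 to 12.4). In neuroendocrine-like cluster 7, for example, Sycn had 2 UMIs over 25 EL1 cells and 1184 UMIs over 102 WTg cells. Serpini2 had 0 UMIs in EL1 in each of the 4 and 72 to 176 UMIs in WTg. The bound on its difference was widest in cluster 12, a cluster led by the immediate early genes Fos and Egr4, where WTg was at least 67.0-fold higher against a floor of 3 counts in EL1. Cuzd1 was higher in WTg by 1.80 to 2.63 on the log2 scale and Gp2 by 0.38 to 3.97. Tmed11 was lower in WTg in the 3 clusters that could be compared, with log2 ratios of -6.41 to -3.22 and with 37 UMIs over 27 EL1 cells and 1 UMI over 60 WTg cells in acinar-like cluster 10. Those 37 UMIs came from 4 cells. Spink1 was level in clusters 10 (log2 ratio -0.04, -0.14 to 0.07) and 12 (-0.02, -0.08 to 0.05), higher in WTg in cluster 7 (1.97) and lower in cluster 6 (-1.05). Aqp12 was lower in WTg in cluster 7 (-2.30, -2.88 to -1.72) and higher in cluster 12 (1.91, 1.02 to 2.89). Zg16 was higher in WTg in clusters 6 (1.78, 0.78 to 2.92), 10 (0.40, 0.02 to 0.78) and 12 (2.03), and within its interval of 0 in cluster 7 (-0.21, -0.42 to 0.01). The median over the 9 genes was 1.97 in cluster 7, 0.40 in cluster 10 and 2.63 in cluster 12, where all genes had medians of -0.10, -0.60 and -0.22. In cluster 6 it was 3.05 over 8 genes and 0.11 over all genes. Clusters 6 and 10 were shallow, with medians of 2063 and 3461 UMIs per cell, and cluster 6 was led by Gm26917, Kcnq1ot1 and Malat1, which are non-coding RNAs.

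**Figure D4:**
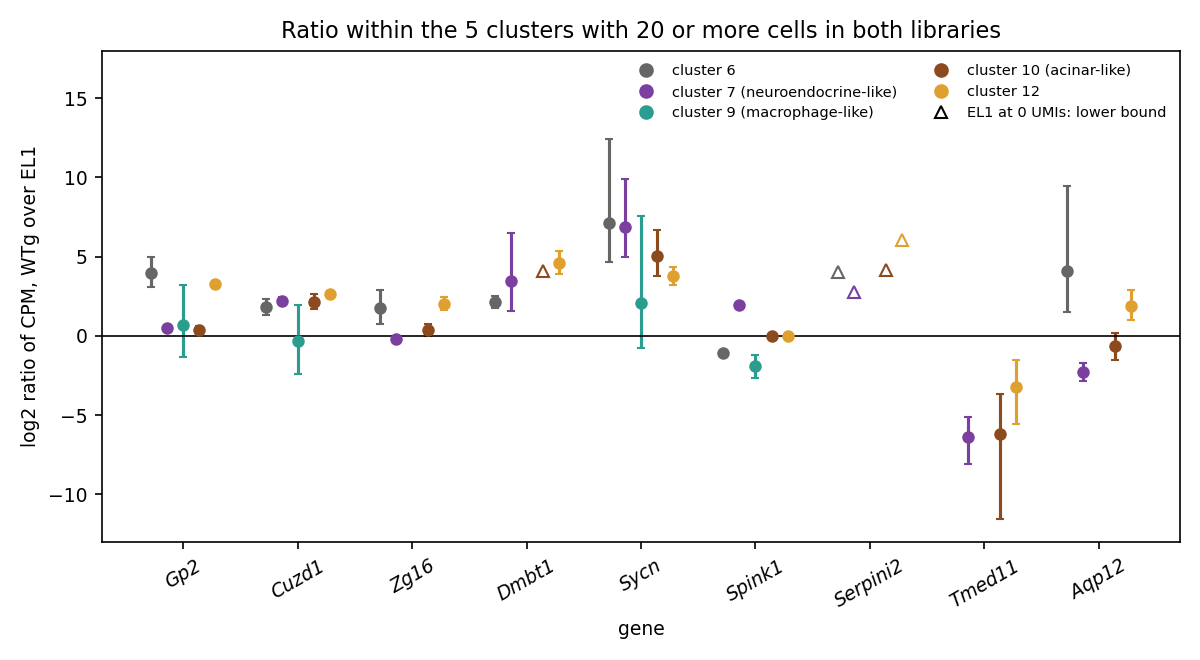
Log2 ratio of CPM, WTg over EL1, of each gene within the 5 clusters that held at least 20 cells of both libraries, with exact 95% intervals for counting error; open triangles are lower bounds where EL1 had 0 UMIs. Sycn, Serpini2 and Dmbt1 lie above 0 in clusters 6, 7, 10 and 12, Tmed11 lies below 0, and Spink1 and Aqp12 lie on both sides.

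The acinar-like class joined clusters 8 and 10. It had 30 EL1 cells, 27 of them in cluster 10, with a median of 4111 UMIs, and 172 WTg cells, 112 of them in cluster 8, with a median of 22673.5 UMIs. Within it, Serpini2 (1 UMI in EL1, 1257 UMIs in WTg), Sycn (20 and 2400 UMIs, log2 ratio 3.11, 2.48 to 3.83), Cuzd1 (log2 ratio 1.45) and Gp2 (log2 ratio 1.17) were higher in WTg by at least 2-fold, where 11.9% of 10742 genes were. Zg16 (684 CPM in EL1, 250 CPM in WTg), Dmbt1 (775 and 239 CPM) and Tmed11 (115 and 12.8 CPM) were lower by at least 2-fold, where 18.6% of all genes were. Past 2-fold, Gp2 held least well, at 0.98 at resolution 2, 0.95 without doublets and 0.38 in cluster 10 alone. At resolution 0.5, which left 3 EL1 cells in the class, Cuzd1 fell to 0.27 and Tmed11 moved to -0.77. The median over the 9 genes was 0.62, and -0.15 over all genes. The EL1 value of Dmbt1 rested on 263 UMIs in 3 cells, all in cluster 8, and in cluster 10 alone its direction was the opposite, with 0 UMIs in EL1 and 104 UMIs in WTg. Zg16 and Aqp12 also turned direction in cluster 10 alone, with log2 ratios of 0.40 and -0.66 there against -1.45 and 0.62 in the whole class. The 27 EL1 cells of cluster 10 held 177627 of the 339187 EL1 UMIs of the class, and the 3 cells of cluster 8 held the rest. For Zg16, cluster 10 held 82 of the 232 EL1 UMIs, for Cuzd1 42 of 155 and for Sycn 5 of 20, but for Gp2 205 of 217 and for Tmed11 37 of 39.

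Neuroendocrine-like cells, which express chromogranin or prohormone convertase genes, held RNA of most of the granule genes in both libraries as well. The class had 274 EL1 cells, 249 of them in cluster 0, and 102 WTg cells, all in cluster 7. Gp2 was at 491 CPM in EL1 against 1095 CPM in WTg and Sycn at 17.6 against 329 CPM, a log2 ratio of 4.23. Serpini2 had 8 UMIs in EL1, all in 1 cell, against 104 UMIs in 22 WTg cells, and Cuzd1 was at 313 against 736 CPM. Zg16 (294 and 272 CPM) and Dmbt1 (44.0 and 30.9 CPM) differed less, and Spink1 (2277 and 1353 CPM) and Tmed11 (23.2 and 1.39 CPM) were lower in WTg. Aqp12 was at 7.88 CPM in EL1 and higher in WTg, with a log2 ratio of 0.93. These class values set mostly cluster 0 of EL1 against cluster 7 of WTg. Within cluster 7 alone, Dmbt1 (3.44, 1.55 to 6.50) and Spink1 (1.97) were higher and Aqp12 (-2.30) lower in WTg, each the opposite of its direction in the class.

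More of the granule genes were found per cell in WTg. With each cell thinned to 5000 UMIs and immune-like and red cell-like cells left out, the median cell held UMIs of 2 of the 9 genes in EL1 and of 5 in WTg. At least 6 of the 9 were found in 7 of 947 EL1 cells (0.739%) and in 240 of 704 WTg cells (34.1%). Each gene but Tmed11 was also found in a larger share of these cells in WTg. Higher shares alone raise the number of genes per cell, so this number does not show that the genes occur together. Sycn and Serpini2 were both found in 216 WTg cells, which is 52.6% of the 411 cells with Sycn and 67.5% of the 320 with Serpini2, where 45.5% of all these cells had Serpini2 and 58.4% had Sycn. Dmbt1 and Serpini2 were both found in 214 WTg cells, 65.2% of the 328 with Dmbt1. In EL1, 176 of the 297 cells with Gp2 also had Cuzd1 (59.3%), where 51.5% of all cells had Cuzd1. Cells of 1 library share their tumour and their dissociation, so these overlaps are a description of the 2 libraries.

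Over the 20 cluster-by-library groups, the levels of Sycn and Serpini2 followed each other most closely of all pairs (Pearson's r = 0.94 on log2(CPM + 1)), followed by Gp2 and Cuzd1 (r = 0.88), and Serpini2 and Tmed11 ran most opposite (r = -0.40). These groups share 2 libraries, so a difference between libraries alone gives a high r, and no p was computed. Among the other 11043 genes compared, those most like Spink1 were the enzymes Prss2 (r = 0.99), Try5 (0.98) and Cpb1 (0.98). Most like Cuzd1 were Pnliprp1, a lipase-related protein (0.97), Kdelr2, a receptor that returns proteins to the endoplasmic reticulum (0.94), and Amy2a5, an amylase (0.93). Sycn was most like Prss1 (0.94), Gm5771 (0.93) and Xlr3a (0.92), and Serpini2 like Adm2 (0.90), Xlr3a (0.89) and Prss1 (0.88). Gp2 was most like Nrgn (0.91), Ambp (0.89) and Pnliprp1 (0.88), and Zg16 like Tff2, a trefoil peptide of gastric mucus (0.96), Fxyd6 (0.94) and Clps, colipase (0.93). Dmbt1 was most like genes of basement membrane adhesion, Itgb4 (0.82) and Hspg2 (0.81). Tmed11 was most like Gm15889 (0.87), Azgp1 (0.85) and Rbp2 (0.85), and Aqp12 like Cela3b, an elastase (0.88), Rnase1, a secreted ribonuclease (0.85), and BC034090 (0.83).

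Granule genes were also compared between dividing and other cells within each library, a split that the rule for the genes did not use. Cells with at least 2 UMIs of 10 mitotic genes after thinning, 176 in EL1 and 147 in WTg, were set against cells with 0, 724 and 541, without immune-like and red cell-like cells. Cuzd1 was lower in mitotic cells of both libraries, at 254 CPM in other and 137 CPM in mitotic EL1 cells (log2 ratio -0.89, -0.98 to -0.80) and 1144 and 794 CPM in WTg (-0.53, -0.57 to -0.49). Dmbt1 was higher in mitotic cells of both, by 0.39 (0.29 to 0.49) and 0.17 (0.11 to 0.22) on the log2 scale, but the WTg value turned to -0.078 when the split was made on cells thinned to 1000 UMIs. Sycn was lower in mitotic WTg cells, at 564 CPM against 917 CPM (log2 ratio -0.70, -0.75 to -0.65), and in EL1 it depended on the split, at -0.11 (-0.48 to 0.24) with cells thinned to 2000 UMIs and 0.54 (0.18 to 0.89) with cells thinned to 1000 UMIs. The median over the 9 genes was -0.50 in EL1 and -0.10 in WTg, beside 0.11 and 0.19 over all genes, and each of the 9 differed by less than 2-fold in both libraries with this split. With other thinning, Aqp12 in WTg was past 2-fold at 1000 UMIs (-1.49, -1.85 to -1.15) and Tmed11 in EL1 at 5000 UMIs (-1.42, -1.76 to -1.09).

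**Figure D5:**
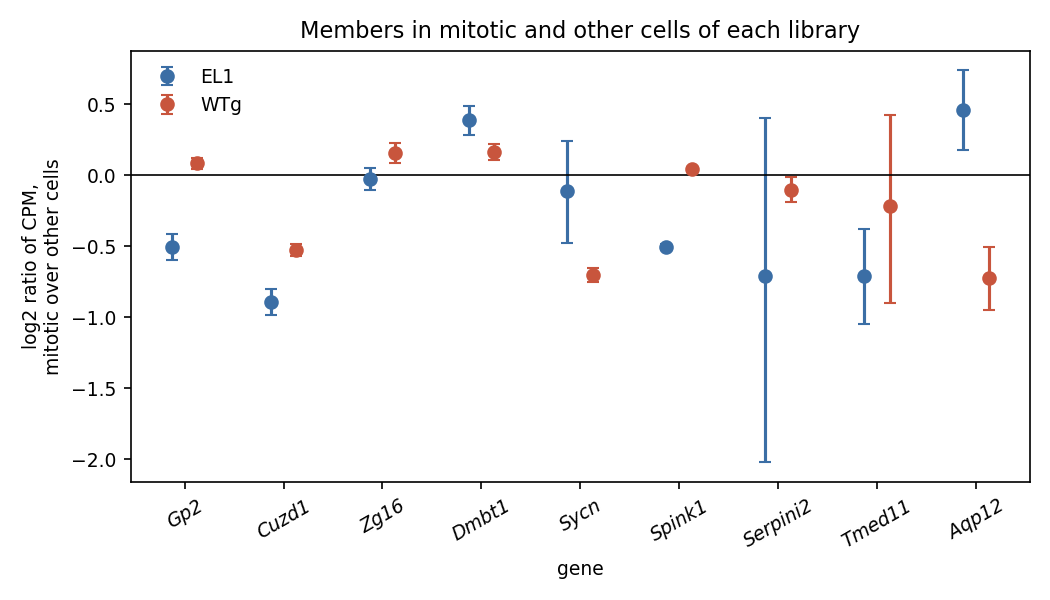
Log2 ratio of CPM in mitotic over other cells for each gene, in EL1 (blue) and WTg (red), with exact 95% intervals for counting error. Cuzd1 is below 0 in both libraries and Dmbt1 above 0 in both with this split (-0.078 in WTg when cells were thinned to 1000 UMIs), while Gp2, Spink1 and Aqp12 lie on opposite sides of 0.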

How the data were processed

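Single cells of dissociated pancreatic tumours were sorted for viability, and 3′ libraries of 1 EL1 and 1 WTg sample were made on the Chromium system. The authors deposited raw UMI counts per gene and barcode, made with Cell Ranger on GRCm38 per the labels, and dense count tables of the same cells made in R 4.1 and Seurat 4.0.5, whose filter is not given in the sources used here. The matrices were used, and the dense tables as an alternative. Gene spans were those of GENCODE for GRCm38, in which 32158 of 32285 gene IDs were found. All per-sample columns were used, that is 0 were left out.

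Barcodes were kept as stated above. Scrublet in scanpy 1.11.5 called 2 EL1 and 3 WTg cells as doublets, under 0.5% of cells, and they were kept. Cells were clustered jointly with leidenalg 0.10.2 (2000 variable genes, 30 principal components, 15 neighbours, resolution 1), leaving out the 9 genes, Mettl3, Plk1 and cell cycle genes (lists of Seurat 5.3.0). A cluster was named when at least 3 markers of 1 type were 2-fold higher than in all other cells in at least 10% of its cells, 1 of them among its top 10 genes, and no other type had as many. Counts were summed per library and cell group and divided by all UMIs of those cells (CPM). Intervals are exact Poisson for CPM, exact conditional binomial for ratios and Clopper-Pearson for shares, at 95%. They cover counting error only. A count of 0 was replaced by a floor of 3 counts per library. The ratio is then a bound at that floor, which is not the limit of its 95% interval. No ratio was given where both counts were at or under 3. Genes needed 10 UMIs over both libraries to be measured. TMM factors came from edgeR 4.0.16. The calculations were tested on simulated data. Genes named beyond the 9 are the highest and lowest ratio of each fixed list, and the 3 genes most correlated with each of the 9 among genes with at least 200 UMIs, of which 1 is not reported here. Leading genes of clusters, and Prss2 and Tmed6, are named as well. The 9 genes and all lists were chosen with earlier results of these data known. The alternatives that left out shared barcodes, immune-like and red cell-like cells, or cluster 8 were chosen after seeing the data.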

Additional observations from a re-analysis of the deposited data

Results flagged for a closer look

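Spink1 was higher in WTg than in EL1 in acinar-like cells (log2 ratio 0.22) and lower in neuroendocrine-like cells (-0.75), and the difference between these was not tested. The acinar-like value turned to -0.16 with genes centred within libraries, -0.13 with cells weighted equally and -0.036 in cluster 10 alone. Within clusters shared by both libraries, the Spink1 ratio ran from -1.90 in macrophage-like cluster 9 to 1.97 in neuroendocrine-like cluster 7, a difference that was not tested. Values of cluster 9 are those of the background, and outside it the lowest ratio was -1.05 in cluster 6. The neuroendocrine-like class was filled mostly from cluster 0 in EL1 (249 of 274 cells) and from cluster 7 alone in WTg.

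Aqp12 had a log2 ratio of WTg over EL1 of -2.30 in cluster 7 and 4.098 in cluster 6, the latter on 1 EL1 UMI, and the difference was not tested.

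In mitotic against other cells, 3 genes went opposite ways in the libraries, and these differences were not tested. The log2 ratio of Gp2 was -0.50 in EL1 and 0.085 in WTg, that of Spink1 -0.51 and 0.042, and that of Aqp12 0.46 and -0.72. The WTg sign turned for Gp2 with at least 1 mitotic UMI (-0.066) and for Spink1 with cells thinned to 1000 UMIs (-0.15).

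The 508 EL1 and 583 WTg barcodes that failed the cell filter also held the granule genes, which summed to 1785 CPM in EL1 (1711 to 1862) and 2540 CPM in WTg (2469 to 2614). Sycn was at 13.2 and 284 CPM in these barcodes and Serpini2 at 0.826 and 75.6 CPM, again higher in WTg. Zg16 was at 296 CPM in EL1 and 124 CPM in WTg there, and Spink1 at 1132 and 871 CPM. Both went in the opposite direction to that in kept cells, where Spink1 was nearly level.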

How the results depend on the processing

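The number of the 9 genes past 2-fold between the libraries was 7 under every alternative run over all kept cells, and their median log2 ratio (1.98) moved beyond its error only under TMM scaling (2.12) and without digestive enzyme UMIs in the total (2.06). The summed level (4460 CPM in EL1, 7619 CPM in WTg) was 4377 and 7347 CPM with no cell filter, 4259 and 7979 under TMM, 3939 and 6931 with cells weighted equally, 5306 and 9533 without digestive enzyme UMIs, and 4532 and 7884 without immune-like and red cell-like cells. It was 4518 CPM in EL1 with the stricter filter, 4405 in EL1 without shared barcodes and 7687 in WTg in the dense table. The acinar-like median (0.62) became 2.42 with genes centred within libraries and 1.53 with cells weighted equally. In that class Dmbt1 turned to 3.97 (centred), 0.92 (cells equal) and 4.12 (cluster 10 alone, against a floor of 3 counts in EL1, lower limit 3.80). Spink1 turned to -0.16, -0.13 and -0.036 in the same order, and Zg16 to 0.40 and Aqp12 to -0.66 in cluster 10 alone. At resolution 0.5 only 3 EL1 cells were acinar-like. The median share of cells (6.28% in EL1, 33.9% in WTg) was 4.04% and 25.2% at 1000 UMIs, 8.62% and 44.0% at 5000 UMIs and 20.5% and 56.0% without thinning, where depth sets the share. The mitotic median (-0.50 in EL1, -0.10 in WTg) was -0.53 and -0.43 with the split at 1000 UMIs, -0.38 and -0.19 at 5000 UMIs, and -0.18 and -0.066 with at least 1 mitotic UMI. In WTg, Zg16 turned to -0.50, Dmbt1 to -0.078 and Spink1 to -0.15 at 1000 UMIs, and Gp2 to -0.066 with at least 1 mitotic UMI. Sycn in EL1 (-0.11) turned to 0.54 at 1000 UMIs and 0.24 at 5000 UMIs, and Tmed11 in WTg (-0.21) to 0.11 at 1000 UMIs, from values whose intervals held 0. Beyond these, the cause was not tested. Of the values of single genes other than the 12 that turned from a value clear of 0, 136 moved beyond counting error and 113 did not, and the turns of Sycn and Tmed11 are among these. In the acinar-like class Gp2 (1.17) fell under 2-fold at resolution 2 (0.98), without doublets (0.95) and in cluster 10 alone (0.38), and Cuzd1 (1.45) at resolution 0.5 (0.27). No paired analysis was possible because EL1 and WTg have a single library each, and for the same reason no library could be left out.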
